A study of Mus musculus with 32 samples.

Results

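The NR4A nuclear receptors are a family of 3 genes, Nr4a1 (Nur77), Nr4a2 (Nurr1) and Nr4a3 (Nor1), and they were taken by symbol from the 23420 genes counted in each library. All 3 passed the filter on low counts. RNA was sequenced from the striatum, the forebrain region that receives most of the brain's dopamine input, of mice that had received no drug. The control group, B6, comprised 8 C57BL/6J littermates. The congenic group, Line 4a, comprised 8 B6.D2 mice that carried a DBA/2J-derived segment of chromosome 11 on 1 of their chromosomes and were otherwise on the same C57BL/6J background. All mice were about 50 days old per the labels, and punches from both hemispheres were pooled within each mouse. Sex and home cage of each mouse were not used here because the labels do not give them. The question addressed was whether the congenic segment goes with a change in striatal transcripts.

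NR4A proteins are transcription factors of the nuclear receptor superfamily whose ligand pocket is filled by bulky side chains, so their activity follows mainly from how much protein is made. They are immediate early genes, switched on by calcium and cyclic AMP signals through CREB and MEF2 without new protein synthesis, and they bind the DNA element named NBRE as monomers. Nr4a1 and Nr4a2, but not Nr4a3, also pair with retinoid X receptors. In the striatum Nr4a1 is induced in projection neurons when dopamine tone changes, whereas Nr4a2 is best known as a factor that dopamine neurons of the midbrain require and as a gene of the claustrum and deep cortical layers.

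The genes lie on separate chromosomes, outside chromosome 11. In the mm10 build Nr4a1 spans chr15:101253902-101274795, Nr4a2 spans chr2:57106830-57124003 and Nr4a3 spans chr4:48045078-48086447. No exon base of a member is shared with an exon of another gene in the GENCODE annotation of the build before mm10, whereas the reads were counted on mm10. Of the 50-base windows of their protein-coding transcripts, 0.0521% (3 of 5759) of those of Nr4a3 and 0 of those of the other 2 genes also occur in another gene's transcripts, so few reads could be lost to a near-identical copy.

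The 250 bases before the transcription start that RefSeq's table lists for each gene are shown because the cyclic AMP response element (CRE) is the best-known input of the family. Sequences are from GRCm38.p6 and read toward the gene, on the plus strand for Nr4a1 (chr15:101266596-101266845), the minus strand for Nr4a2 (chr2:57124004-57124253) and the plus strand for Nr4a3 (chr4:48045055-48045304). Capitals mark CRE half-sites, which are TGACG or, read from the opposite strand, CGTCA.
Nr4a1: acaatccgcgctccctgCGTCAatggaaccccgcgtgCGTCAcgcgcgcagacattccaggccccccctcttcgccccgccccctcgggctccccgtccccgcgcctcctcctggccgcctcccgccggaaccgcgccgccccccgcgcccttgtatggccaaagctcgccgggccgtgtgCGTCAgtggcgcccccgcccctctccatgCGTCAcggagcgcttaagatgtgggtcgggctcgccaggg
Nr4a2: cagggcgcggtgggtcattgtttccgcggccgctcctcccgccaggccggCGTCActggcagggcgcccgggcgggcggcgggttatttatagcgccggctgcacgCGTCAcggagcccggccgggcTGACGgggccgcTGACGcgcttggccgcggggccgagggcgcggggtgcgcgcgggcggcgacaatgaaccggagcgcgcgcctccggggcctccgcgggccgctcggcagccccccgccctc
Nr4a3: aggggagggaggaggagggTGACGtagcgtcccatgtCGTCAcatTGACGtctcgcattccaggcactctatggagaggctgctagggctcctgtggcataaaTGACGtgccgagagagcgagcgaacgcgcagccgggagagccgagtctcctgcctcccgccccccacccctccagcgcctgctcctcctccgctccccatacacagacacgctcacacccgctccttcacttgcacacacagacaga

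Each of the 3 windows, called promoters here, holds 4 CRE half-sites. The Nr4a1 window lies wholly inside the span given above for that gene, and the Nr4a3 window mostly inside its own. Windows before other starts of these genes, where listed, are not shown. Among 32851 RefSeq promoters of the same length, taken from 27025 gene symbols, 17.77% hold at least 1 half-site and 0.137% hold at least 4. The half-sites begin 233, 213, 69 and 40 bases before the start in Nr4a1. They begin 200, 144, 123 and 111 bases before it in Nr4a2, and 231, 213, 205 and 147 bases before it in Nr4a3. All 4 read CGTCA in Nr4a1, whereas Nr4a2 has 2 of each orientation and Nr4a3 has 3 that read TGACG. The palindromic full CRE (TGACGTCA, which contains both overlapping half-sites) is in none of the 3 and in 1.546% of all promoters. The NBRE itself (AAAGGTCA, searched on both strands) is in none of the 3 and in 1.336% of all promoters. GC content is 74.4% in Nr4a1, 80% in Nr4a2 and 63.6% in Nr4a3. For comparison, 15 of the 23 activity-regulated genes described later had an entry, and these hold 0 to 3 half-sites each. A match of letters describes the window and is not evidence of binding.

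**Figure D1:**
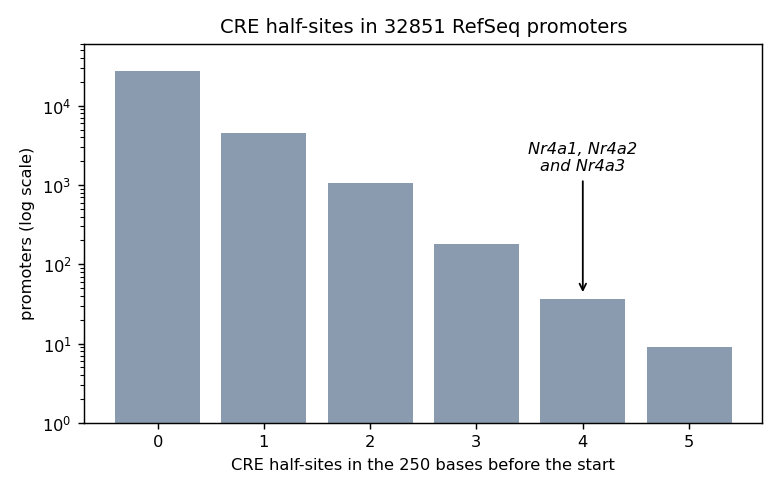
Number of RefSeq mouse promoters (vertical, log scale) by the number of CRE half-sites in the 250 bases before the transcription start (horizontal), with the place of the NR4A genes marked. Of 32851 promoters, 27015 hold no half-site and 36 hold exactly 4, the windows shown for the NR4A genes among them.

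Each library held between 19032826 and 33748353 reads on genes, and 31 lane files from 16 mice were analysed. Mice 1 to 4 of each genotype were sequenced on lanes 5 and 6, and mice 5 to 8 on lanes 7 and 8. A pair of libraries stood apart. Line 4a mouse 1 lay outside the range of the other 7 mice of its genotype at 79.6% of the 11827 genes with a mean of at least 5 CPM (counts scaled to each library's total), and 27.3% of its reads were not uniquely placed. B6 mouse 8 did so at 55.7% of these genes. The other 14 mice did so at 11.4% to 24.2%. Main values without these mice are given beside the results.

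Nr4a1, the family member most closely tied to recent neuronal firing, varied widely between mice. Its level in B6 mice 1 to 8 was 30.7, 67.0, 34.1, 26.5, 74.6, 44.2, 104 and 72.6 CPM. In Line 4a mice 1 to 8 it was 26.4, 37.8, 19.9, 67.1, 37.7, 48.7, 34.5 and 44.5 CPM. The groups overlapped widely, although 3 B6 mice lay above every Line 4a mouse and 7 of 8 Line 4a mice lay below the B6 median of 55.6 CPM. The mean was 56.7 ± 27.1 CPM in B6 and 39.6 ± 14.4 CPM in Line 4a (SD, n = 8 per genotype). On the log2 scale the difference was -0.51 (SE 0.27, 95% interval -1.05 to 0.025), with an unadjusted p of 0.0776 and an adjusted p of 0.540 (edgeR's quasi-likelihood test, Benjamini-Hochberg over 15589 genes). An exact two-sided permutation test of log2 CPM gave p = 0.173.

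Nr4a2, the Nurr1 gene, was steadier. Its levels in B6 mice 1 to 8 were 43.5, 62.6, 33.1, 47.8, 61.8, 45.3, 49.5 and 57.2 CPM. In Line 4a mice 1 to 8 they were 38.3, 41.0, 35.5, 25.2, 50.7, 40.3, 30.2 and 33.2 CPM. All Line 4a mice except mouse 5 lay below the B6 median of 48.7 CPM, and B6 mouse 3, at 33.1 CPM, lay below 6 of the 8 Line 4a mice. The mean was 50.1 ± 10.03 CPM in B6 and 36.8 ± 7.73 CPM in Line 4a (SD, n = 8 per genotype). The log2 difference was -0.45 (SE 0.14, 95% interval -0.71 to -0.18). The unadjusted p was 0.00393, rank 168 of the 15589 genes tested, and the adjusted p by edgeR's quasi-likelihood test was 0.361. The exact permutation p was 0.0124, where the smallest that 12870 regroupings allow is 0.000155.

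Nr4a3, the Nor1 gene, was counted by 18 to 157 reads per mouse. In B6 mice 1 to 8 its level was 2.61, 4.71, 3.99, 2.97, 2.78, 2.09, 3.78 and 4.13 CPM. In Line 4a mice 1 to 8 it was 0.564, 1.75, 1.85, 3.23, 2.99, 2.55, 2.79 and 2.60 CPM. Every Line 4a mouse lay below the B6 median of 3.38 CPM, and 4 B6 mice lay above every Line 4a mouse. The mean was 3.38 ± 0.899 CPM in B6 and 2.29 ± 0.865 CPM in Line 4a (SD, n = 8 per genotype). The log2 difference was -0.56 (SE 0.24, 95% interval -1.04 to -0.087), with an unadjusted p of 0.0321 and an adjusted p of 0.463 by edgeR's quasi-likelihood test. An exact permutation test gave p = 0.0294. The lowest level belonged to Line 4a mouse 1, the library that stood apart, and without it the difference was -0.41 (SE 0.17, unadjusted p = 0.0245 by edgeR). Left out one at a time, B6 mice 2, 3 and 8 and Line 4a mice 2 and 3 each put the unadjusted p of Nr4a3 above 0.05, up to 0.0740 in the edgeR fit, and none did so for Nr4a2, which stayed at or under 0.0109.

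**Figure D2:**
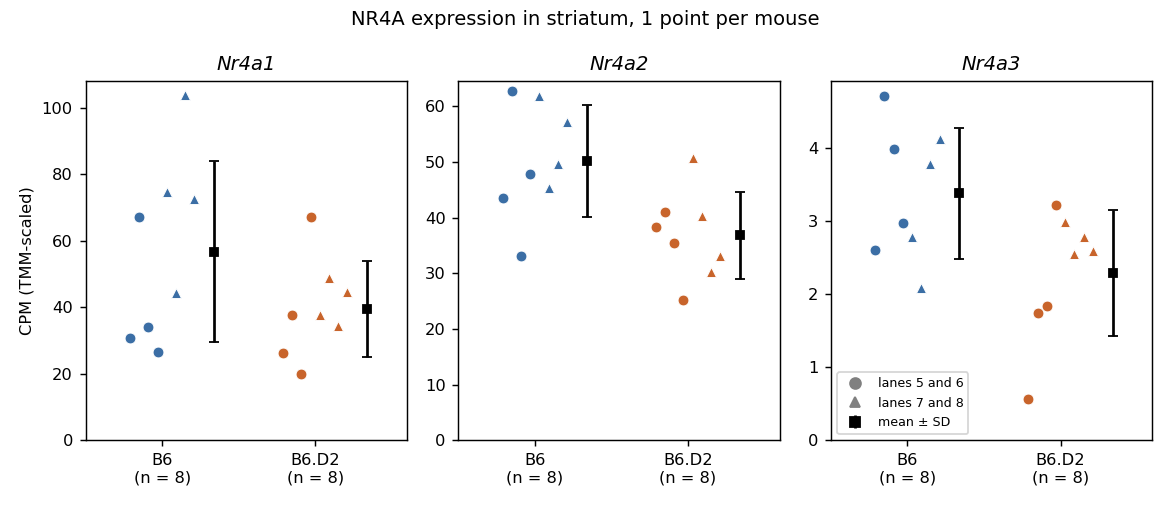
Level of each NR4A gene in TMM-scaled CPM (vertical, linear from 0) in each mouse, for B6 and Line 4a (labelled B6.D2). Circles are mice of lanes 5 and 6, triangles those of lanes 7 and 8, and squares give the mean with SD. Means were lower in Line 4a for all 3 genes, and every panel shows overlap.

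None of the 3 members passed an adjusted p of 0.05 by edgeR's quasi-likelihood test, a threshold that 0.00641% of all genes tested (1 of 15589) passed. At an unadjusted p under 0.05, 2 of the 3, Nr4a2 and Nr4a3, were lower in Line 4a and 0 were higher, against 5.14% of all genes tested that were lower and 4.86% that were higher at that level. Nr4a2 is on the study's list of differing genes from these same mice, so its direction is not independent evidence. Outside that list 1 member was lower. The count of lower members was 1 without B6 mouse 2 or 8 or Line 4a mouse 2 or 3. It was 3 without B6 mouse 1 or 4 or Line 4a mouse 4, since Nr4a1 then also passed (unadjusted p = 0.0399, 0.0305 and 0.0250 in edgeR), and Nr4a1 passed in place of Nr4a3 without B6 mouse 3 (unadjusted p = 0.0478 in edgeR). With 1 mouse left out, between 1107 and 2087 of all genes passed in either direction. Without both libraries that stood apart, 2 of the 3 members were lower at that level, where 7.32% of all genes were. The log2 differences were then -0.38 (SE 0.28) for Nr4a1, -0.43 (SE 0.14) for Nr4a2 and -0.37 (SE 0.17) for Nr4a3. No member had genotypes that did not overlap, which 0.0577% of all genes tested had. DESeq2 gave adjusted p-values of 0.554 for Nr4a1, 0.135 for Nr4a2 and 0.371 for Nr4a3, and edgeR's likelihood ratio test gave 0.541, 0.160 and 0.433. In whole punches, fewer cells that express a gene and less RNA per cell cannot be told apart.

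The spread between mice set the precision rather than the depth. The biological coefficient of variation, edgeR's estimate of the spread between mice beyond counting, was 37.7% for Nr4a1, and 98.8% of genes tested had a lower one. It was 18.9% for Nr4a2 and 32.7% for Nr4a3, above 86.8% and 97.9% of genes, where the median gene had 11.1%. Within B6 the highest mouse had 3.91 times the Nr4a1 level of the lowest, and within Line 4a 3.38 times. For Nr4a3 this range was 2.26 times in B6 and 5.72 times in Line 4a, where mouse 1 was the lowest. Counting alone would give a coefficient of variation of 2.72% to 3.15% for Nr4a1, and of 10.7% to 14.03% for Nr4a3.

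The genotype difference of Nr4a1 and that of Nr4a3 had different sizes in the 2 lane pairs. Among mice of lanes 5 and 6, 4 per genotype, the log2 difference of Nr4a1 was -0.065 (SE 0.39), and among mice of lanes 7 and 8 it was -0.84 (SE 0.21). Nr4a3 showed the reverse order, with -0.95 (SE 0.41) on lanes 5 and 6 and -0.23 (SE 0.20) on lanes 7 and 8. Nr4a2 differed by -0.42 (SE 0.20) on lanes 5 and 6 and by -0.48 (SE 0.15) on lanes 7 and 8. The difference between lane pairs itself did not pass the test for any member. It was -0.77 (SE 0.49) for Nr4a1 with an unadjusted p of 0.135, -0.052 (SE 0.27) for Nr4a2 with p = 0.851 and 0.73 (SE 0.48) for Nr4a3 with p = 0.142, all in edgeR's quasi-likelihood test. With Line 4a mouse 1 left out, the difference on lanes 5 and 6 was 0.076 (SE 0.38) for Nr4a1, -0.47 (SE 0.20) for Nr4a2 and -0.64 (SE 0.26) for Nr4a3.

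Between the paralogs, levels can be set side by side only per length of transcript. Per kilobase of exon, Nr4a1 stood at 22.9 ± 10.96 CPM in B6 and 16.0 ± 5.84 CPM in Line 4a (SD, n = 8). Nr4a2 stood at 12.3 ± 2.47 CPM per kilobase in B6 and 9.06 ± 1.90 in Line 4a, and Nr4a3 at 0.565 ± 0.150 in B6 and 0.382 ± 0.145 in Line 4a. Nr4a1 exceeded Nr4a2 by 1.70-fold, in 14 of 16 mice (exact sign-flip permutation test over mice, two-sided p = 0.000183). With the length of the longest transcript in place of all exons, this ratio was 1.49-fold in 13 of 16 mice (exact permutation p = 0.00146). Nr4a1 exceeded Nr4a3 by 40.6-fold and Nr4a2 exceeded Nr4a3 by 23.9-fold, each in 16 of 16 mice, with the smallest p that the exact permutation test allows (3.05e-05).

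The ratios between the paralogs did not show a genotype difference beyond the spread. The log2 ratio of Nr4a1 to Nr4a2 counts was 0.054 ± 0.57 in B6 and 0.048 ± 0.70 in Line 4a (SD, n = 8 per genotype, exact permutation p = 0.990, adjusted over the 3 ratios 0.990). Nr4a1 to Nr4a3 gave 3.95 ± 0.66 in B6 and 4.16 ± 0.66 in Line 4a (exact permutation p = 0.539, adjusted 0.915). Nr4a2 to Nr4a3 gave 3.901 ± 0.45 in B6 and 4.12 ± 0.92 in Line 4a (exact permutation p = 0.610, adjusted 0.915). The widest spread, that of Nr4a2 to Nr4a3 in Line 4a, includes mouse 1, at 6.04.

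Across mice the 3 genes were related only loosely. Over 16 mice, and among 12 relations computed, log2 CPM of Nr4a1 and Nr4a3 had r = 0.54 (permutation p = 0.0233, adjusted 0.0932) and rho = 0.47 (permutation p = 0.0652, adjusted 0.183). Without the 2 mice farthest from the median of Nr4a1, r was 0.51. Within B6 it was 0.40, within Line 4a 0.58, on lanes 5 and 6 0.53 and on lanes 7 and 8 0.63. Nr4a1 and Nr4a2 had r = 0.38 (permutation p = 0.150, adjusted 0.225) and rho = 0.40 (permutation p = 0.123, adjusted 0.185). This r was 0.63 within B6 and -0.34 within Line 4a, where mouse 4 combined the highest Nr4a1 with the lowest Nr4a2, and 0.023 on lanes 5 and 6 and 0.65 on lanes 7 and 8. Without Line 4a mouse 4 it was 0.62 over the remaining mice (permutation p = 0.0143), and without the 2 mice farthest from the median of Nr4a1 it was 0.31. Nr4a2 and Nr4a3 had r = 0.25 (permutation p = 0.366, adjusted 0.366) and rho = 0.32 (permutation p = 0.223, adjusted 0.268), and r was -0.078 once each genotype's mean was removed. That r was 0.26 without the 2 mice farthest from the median of Nr4a2, 0.16 on lanes 5 and 6 and 0.42 on lanes 7 and 8. Without Line 4a mouse 1, r was 0.37 for Nr4a1 with Nr4a2, 0.56 for Nr4a1 with Nr4a3 and 0.29 for Nr4a2 with Nr4a3. Without B6 mouse 8 these were 0.31, 0.51 and 0.18.

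Nr4a1 moved with the other immediate early genes. An activity score, the mean standardized log2 CPM of 23 activity-regulated genes such as Fos, Arc and Egr1 and without the NR4A genes, had r = 0.93 with Nr4a1 (permutation p = 1e-05, the smallest that 100000 resamples can give, adjusted 0.00012) and rho = 0.86 (permutation p = 5e-05, adjusted 0.0006). It was 0.94 within B6, 0.89 within Line 4a, 0.93 on lanes 5 and 6, 0.97 on lanes 7 and 8, 0.92 without the 2 mice farthest from the median score, and 0.91 to 0.94 when each mouse was left out in turn. The score had r = 0.49 with Nr4a2 (permutation p = 0.0562, adjusted 0.135) and rho = 0.39 (permutation p = 0.142, adjusted 0.190). With Nr4a3 it had r = 0.49 (permutation p = 0.0493, adjusted 0.135) and rho = 0.46 (permutation p = 0.0733, adjusted 0.183). Without the 2 farthest mice r was 0.35 for Nr4a2 and 0.37 for Nr4a3. With each mouse left out in turn it ran from 0.38 to 0.65 for Nr4a2. For Nr4a3 it ran from 0.41 to 0.59, the highest without Line 4a mouse 1. Within B6 and within Line 4a it was 0.65 and -0.30 for Nr4a2, and 0.56 and 0.25 for Nr4a3. For Nr4a2 the score had r = 0.26 on lanes 5 and 6 and 0.66 on lanes 7 and 8, and for Nr4a3 it had 0.50 and 0.53.

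The activity score itself was 0.29 ± 0.65 in B6 and -0.29 ± 0.42 in Line 4a (SD, n = 8 per genotype). With this score as a covariate, the genotype difference of Nr4a1 turned to 0.17 (SE 0.13, unadjusted p = 0.209), while that of Nr4a2 was -0.34 (SE 0.16, unadjusted p = 0.0441) and that of Nr4a3 -0.35 (SE 0.27, unadjusted p = 0.199), each in edgeR's quasi-likelihood test. The score is built from the same libraries and its part in the genotype difference was not tested otherwise.

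The genes whose levels followed each paralog most closely were different sets. They were ranked by r over 16 mice with each genotype's mean removed, among 11827 genes, and are given as a description. For Nr4a1 the first 5 were Arc (r = 0.957), which encodes a synaptic capsid-like protein, the transcription factors Egr2 (0.921), Junb (0.916), Fos (0.899) and Egr1 (0.898), all activity-regulated genes. Arc ranged from 54.5 to 181 CPM with a median of 97.3 in B6, and from 49.6 to 129 CPM with a median of 66.5 in Line 4a. Of the 20 activity-regulated genes in the search, 14 were among the 100 genes most like Nr4a1, and their median r was 0.72, where the median over all genes was -0.0097.

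For Nr4a2 the first 5 were Gng2 (r = 0.846), a G protein gamma subunit and a claustrum marker, Egfem1 (0.774), Sap30l (0.773), Cpne4 (0.772) and Prss12 (0.741). Gng2 ranged from 124 to 165 CPM in B6 and from 89.3 to 138 CPM in Line 4a, lowest in Line 4a mouse 4, as Nr4a2 was. Among the 100 genes most like Nr4a2 were 0 of the 20 activity-regulated genes, 2 of 8 claustrum and lateral cortex markers and 1 of 17 cortical glutamatergic markers. At 100 of 11827 genes, 0 of 20 is close to what the share of all genes would give. Gng2, 1 of the 2 claustrum markers, is on the study's list from these same mice. The median r with Nr4a2 was 0.10 over the activity-regulated genes and 0.30 over the claustrum and lateral cortex markers.

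For Nr4a3 the first 5 were Sap30bp (r = 0.939), Zfp146 (0.908), Dpy19l3 (0.8997), Rnf121 (0.896) and Cacnb1 (0.894), none of them in a list used here. All 5 were lowest in Line 4a mouse 1. Without that mouse 0 of these 5 remained among the first 5, which were then Gskip (0.873), Prim2 (0.836), Mrps2 (0.830), Pigyl (0.830) and Rgs2 (0.821). Without the same mouse, 3 of the first 5 genes of Nr4a1 and 1 of those of Nr4a2 remained.

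**Figure D3:**
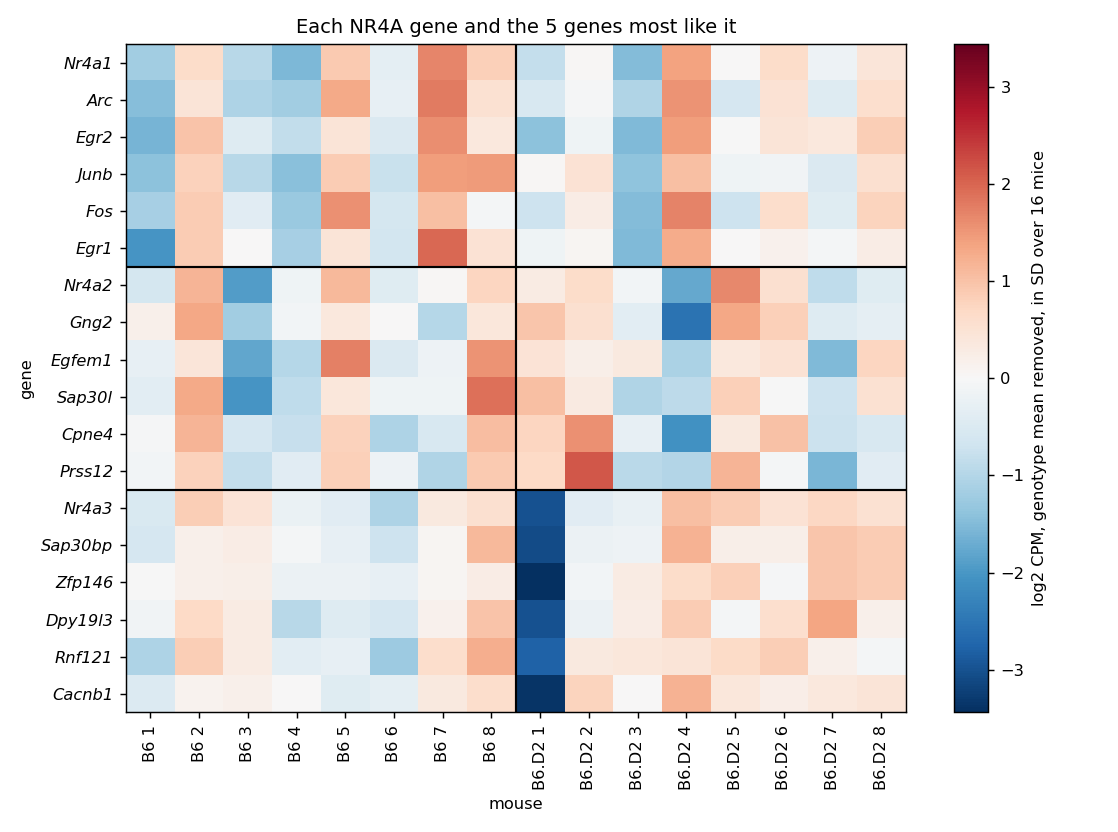
Log2 CPM with the genotype mean removed, in SD over 16 mice (colour), for each NR4A gene and the 5 genes most like it (rows) in each mouse (columns, B6 left of the line and Line 4a, labelled B6.D2, right of it). The Nr4a1 block is low in B6 mice 1 and 4 and Line 4a mouse 3 and high in B6 mouse 7 and Line 4a mouse 4, and the Nr4a3 block is set by Line 4a mouse 1.

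Partners and regulators of the family were examined next. The retinoid X receptors Rxra, Rxrb and Rxrg, which pair with Nr4a1 and Nr4a2, differed by -0.0011, 0.0097 and 0.0005 on the log2 scale, with SEs of 0.058, 0.040 and 0.10. Of 10 NR4A cofactors and corepressors, 0 passed an unadjusted p of 0.05 in edgeR, which 10% of all genes tested did. Some passed when a mouse was left out, with 1 lower without Line 4a mouse 1 and 1 higher without B6 mouse 1, 5 or 7 or Line 4a mouse 3 or 7. Of 16 upstream activators, 2 were lower and 2 higher at that level, against 5.14% and 4.86% of all genes tested. Mef2c, a MEF2 factor that binds the promoter of Nr4a1, fell by 0.36 (SE 0.10) from 232 ± 34.5 to 180.1 ± 29.9 CPM, with an unadjusted p of 0.00190 and an adjusted p of 0.331. Prkacb, a catalytic subunit of protein kinase A, differed by -0.11 (SE 0.046, unadjusted p = 0.0295) and Crtc2, a CREB coactivator, by 0.18 (SE 0.069, unadjusted p = 0.0159). Without B6 mouse 1 or 3 the lower count was 1, without B6 mouse 4 the higher count was 1, and without Line 4a mouse 1 the counts were 3 lower and 3 higher. With 1 mouse left out, between 1107 and 2087 of all genes passed in either direction, against 1559 with all mice. Within lane pairs, 0 of the 16 passed on lanes 5 and 6, where 1.56% of all genes were lower and 1.64% higher. On lanes 7 and 8, 3 were lower and 1 higher, where 4.66% of all genes were lower and 4.35% higher. The median log2 difference of the 16 was -0.048, where the median of all genes was 0.012. With the cortical or the claustrum score described below as a covariate, 0 of the 16 were lower and 0 higher at that level. In those fits 366 and 194 of all genes passed in either direction, and the cause was not tested.

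Of 34 other nuclear receptors, 32 were tested, of which 4 were lower and 2 higher at an unadjusted p under 0.05, against 5.14% and 4.86% of all genes tested, with a median log2 difference of 0.0031. Without both libraries that stood apart 4 were lower and 4 higher, against 7.32% and 5.44% of all genes, and without Line 4a mouse 1 alone 6 were lower. Without B6 mouse 3 or 8 or Line 4a mouse 8, 2 were lower, and without B6 mouse 4 or Line 4a mouse 4, 4 were higher. The number of all genes passing in either direction moved too, from 1559 with all mice. It was 1135, 1385 and 1233 without B6 mouse 3, B6 mouse 8 and Line 4a mouse 8. Without B6 mouse 4, Line 4a mouse 4 and Line 4a mouse 1 it was 1888, 1645 and 2087. Esr1, the estrogen receptor alpha, had the largest of these differences, at -0.76 (SE 0.20, unadjusted p = 0.00123) on a level of 1.202 ± 0.192 CPM in B6 and 0.712 ± 0.271 CPM in Line 4a. Rarg, a retinoic acid receptor, was higher by 0.16 (SE 0.055) with an unadjusted p of 0.00958. The adjusted p-values of these receptors were 0.331 or above by edgeR's quasi-likelihood test.

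Of the 23 activity-regulated genes, 20 had a log2 difference below 0, as 45.1% of all genes tested had, and the median log2 difference was -0.26. At an unadjusted p under 0.05 in edgeR, 6 were lower and 0 higher in Line 4a, against 5.14% and 4.86% of all genes tested. Nptx2, a secreted synaptic pentraxin, differed by -0.34 (SE 0.092, unadjusted p = 0.00155, adjusted p = 0.331 by edgeR), and all 8 Line 4a mice lay below the B6 median of 33.7 CPM. Ptgs2, the inducible cyclooxygenase, differed by -0.48 (SE 0.16) and Homer1, a postsynaptic scaffold, by -0.24 (SE 0.092), with unadjusted p-values of 0.00692 and 0.0162. Among mice of lanes 5 and 6, 0 of the 23 were lower at that level, where 1.56% of all genes were, and among mice of lanes 7 and 8, 14 of the 23 were, where 4.66% of all genes were. The difference in count between the lane pairs was not tested. With the cortical or the claustrum score described below as a covariate, 0 of the 23 were lower, where 366 and 194 of all genes passed in either direction. The lower count of the 23 was 3 without both libraries that stood apart, where 7.32% of all genes were lower. It was 3 without B6 mouse 2 and 10 without Line 4a mouse 4, where 1107 and 1645 of all genes passed in either direction.

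Nr4a2 is also expressed in neurons outside the striatum, so markers of those cells were counted. Of 14 genes of midbrain dopamine neurons, where Nr4a2 is a lineage factor, Foxa2 was at 0 in every mouse, and Slc6a3, Pitx3, En1 and Lmx1b were below the filter. None of the 9 tested passed an unadjusted p of 0.05 in edgeR (smallest p = 0.133), which 10% of all genes tested did. Their summed level was 110.2 to 147 CPM in B6 and 109 to 157 CPM in Line 4a. Without both libraries that stood apart 1 was lower, where 7.32% of all genes were, and on lanes 7 and 8 1 was higher, where 4.35% were.

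Markers of the claustrum and cortex were counted in the same way. Of 10 claustrum and lateral cortex markers, 5 were lower and 0 higher in Line 4a at an unadjusted p under 0.05, against 5.14% and 4.86% of all genes tested, with a median log2 difference of -0.23 and a summed level of 316 to 376 CPM in B6 and 269 to 337 CPM in Line 4a. Gnb4, a G protein beta subunit, differed by -0.21 (SE 0.053), Cplx3, a complexin, by -0.31 (SE 0.085) and Gng2 by -0.25 (SE 0.077), with unadjusted p-values of 0.000725, 0.00180 and 0.00438. Of 19 cortical glutamatergic markers, 10 were lower and 0 higher, with a median of -0.38 and a summed level of 1146 to 1552 CPM in B6 and 970.1 to 1407 CPM in Line 4a. Neurod6, a neuronal transcription factor, and Kcnv1, a potassium channel subunit, differed by -0.56 (SE 0.13) and -0.38 (SE 0.091). The study named 4 of the 10 claustrum markers, 6 of the 19 cortical markers and Nr4a2 itself from these same mice, so their direction is not independent evidence, and outside that list 1 claustrum marker and 4 cortical markers were lower. On lanes 5 and 6, 2 claustrum and 6 cortical markers were lower at that level, where 1.56% of all genes were, and on lanes 7 and 8, 4 and 10 were, where 4.66% of all genes were. Without both libraries that stood apart the counts were 6 and 11, where 7.32% of all genes were lower. The adjusted p-values of both lists were 0.331 or above by edgeR's quasi-likelihood test.

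A claustrum score was built from the 6 of these markers that the study's list did not hold, and a cortical score from 13 chosen likewise. With the claustrum score as a covariate, the log2 difference of Nr4a2 was -0.27 (SE 0.19, unadjusted p = 0.170 in edgeR). With the cortical score it was -0.37 (SE 0.17, unadjusted p = 0.0408 in edgeR). The differences of Nr4a1 were -0.58 (SE 0.38) and -0.49 (SE 0.32) in the same fits, and those of Nr4a3 -0.46 (SE 0.35) and -0.44 (SE 0.31), all by edgeR's quasi-likelihood test. Across 16 mice the claustrum score had r = 0.59 with Nr4a2 (permutation p = 0.0163, adjusted 0.0932) and rho = 0.54 (permutation p = 0.0348, adjusted 0.183). This r was 0.66 without the 2 farthest mice, 0.48 within B6, 0.071 within Line 4a, 0.68 on lanes 5 and 6, 0.50 on lanes 7 and 8 and 0.28 with genotype means removed. The cortical score had r = 0.44 with Nr4a2 (permutation p = 0.0917, adjusted 0.183) and rho = 0.41 (permutation p = 0.112, adjusted 0.185). That r was 0.25 without the 2 farthest mice, 0.30 on lanes 5 and 6 and 0.83 on lanes 7 and 8. It was 0.19 within B6, 0.088 within Line 4a and 0.14 with genotype means removed. The other 4 relations, of the claustrum and cortical scores with Nr4a1 and Nr4a3, had adjusted p-values of 0.183 or above in the permutation tests. How much of the lower Nr4a2 goes with these markers was not tested further.

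**Figure D4:**
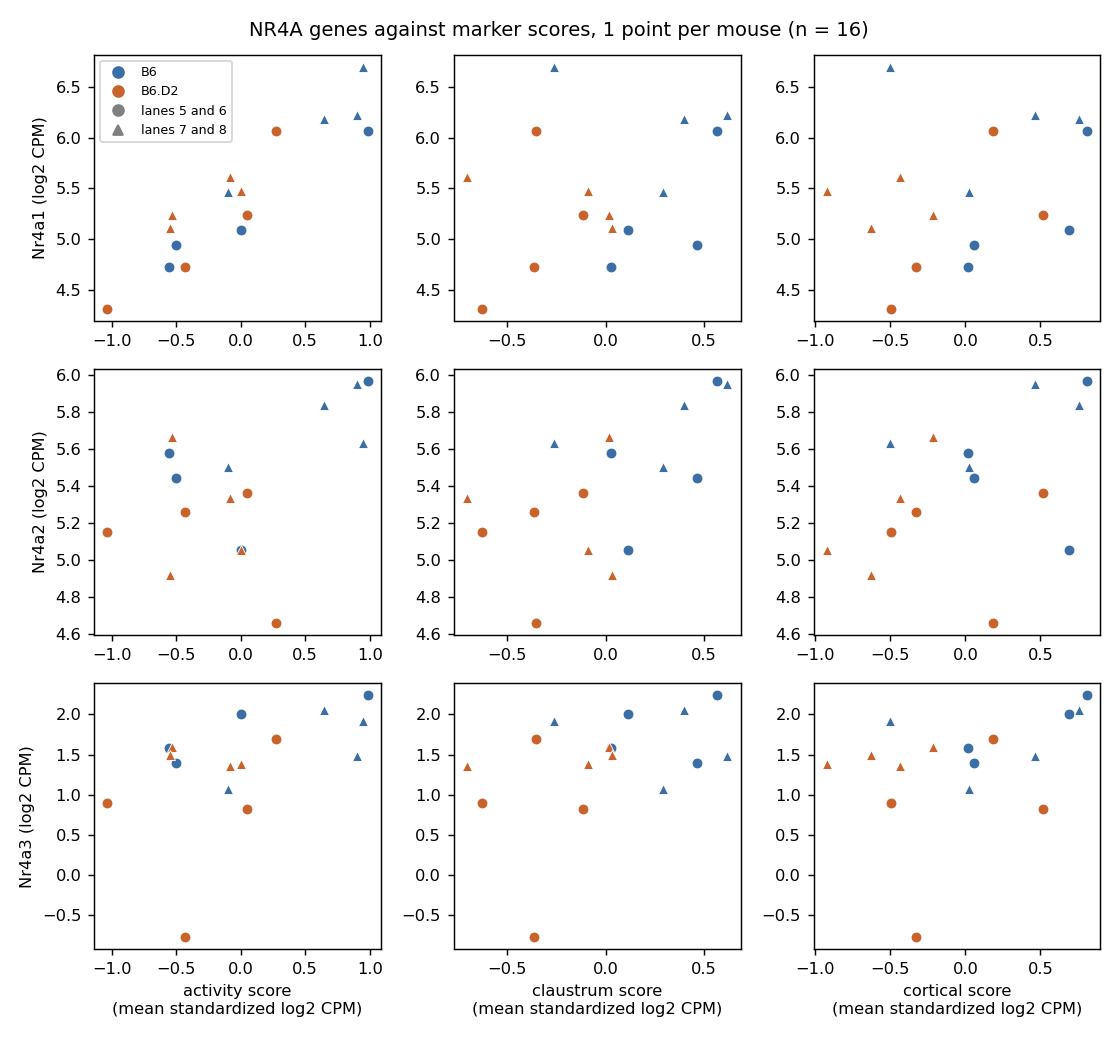
Log2 CPM of each NR4A gene (rows) against the activity, claustrum and cortical scores (columns, mean standardized log2 CPM), 1 point per mouse, blue for B6 and orange for Line 4a (labelled B6.D2), circles for lanes 5 and 6 and triangles for lanes 7 and 8. Points follow a line only for Nr4a1 against the activity score (r = 0.93), and Line 4a mouse 1 lies apart in the Nr4a3 row.

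Markers of the cells that make up most of the tissue were counted as well. With all mice, 5.14% of all genes tested were lower and 4.86% higher at an unadjusted p under 0.05 in edgeR. With 1 mouse left out, between 1107 and 2087 of all genes passed in either direction, against 1559 with all mice. Of 10 striatal projection neuron markers, 0 passed an unadjusted p of 0.05 in edgeR, with a median log2 difference of 0.036, and 2 were higher without B6 mouse 8. Of 7 striosome markers 1, Oprm1 (the mu opioid receptor), was lower, by -0.80 (SE 0.31, unadjusted p = 0.0199), at 1.07 ± 0.403 CPM in B6 and 0.623 ± 0.338 CPM in Line 4a, and 0 were without both libraries that stood apart. Of the markers of oligodendrocytes, astrocytes, microglia and choroid plexus, 8, 5, 5 and 6 genes, 0 passed with all mice. The median log2 differences of these lists were 0.11, 0.057, 0.062 and 0.18. In the same order, 0, 2, 0 and 0 of their genes had a difference below 0, where 45.1% of all genes tested had. With subsets some passed, all of them higher in Line 4a. Without B6 mouse 1, 4 or 7 or Line 4a mouse 2, 1 oligodendrocyte and 1 microglia marker passed, without Line 4a mouse 1 the microglia marker count was 1, and without B6 mouse 4 or Line 4a mouse 2, 1 astrocyte marker passed. On lanes 5 and 6, 3 of the 6 choroid plexus markers passed, where 1.64% of all genes were higher. On lanes 7 and 8, 1 each of the other 3 lists passed, where 4.35% of all genes were higher. Of 5 endothelial markers 1 was higher, Ly6c1, with 1 Line 4a mouse at 87.2 CPM against a median of 26.3, and 2 were higher without Line 4a mouse 1. The median log2 difference of the 5 was 0.091.

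**Figure D5:**
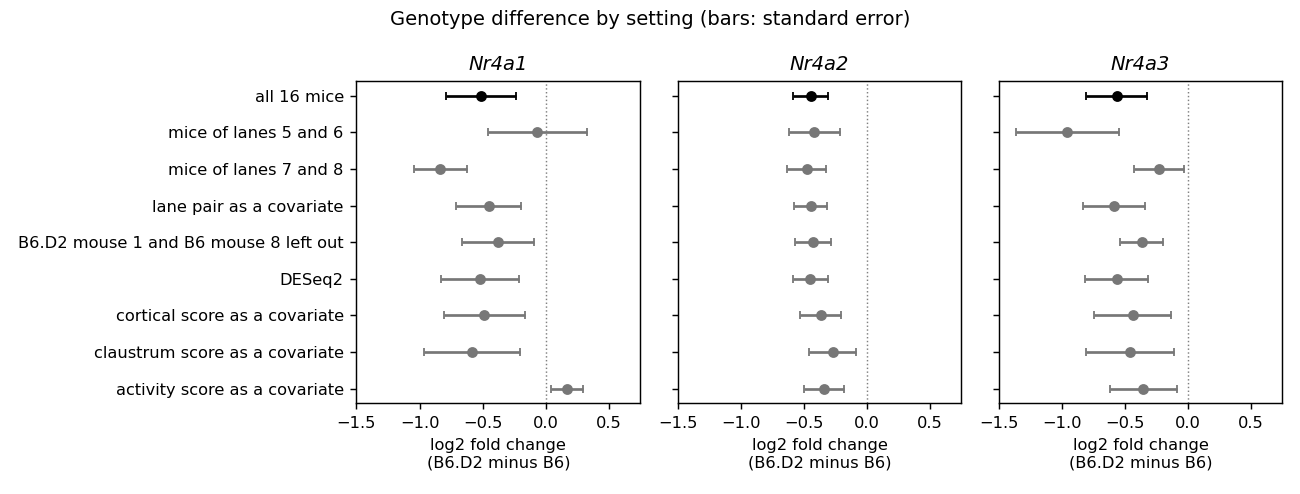
Log2 difference of each NR4A gene, Line 4a (B6.D2) minus B6 (horizontal), with its standard error, for all 16 mice (black) and for other sets of mice, fits and covariates (grey). Over the settings drawn, Nr4a2 ran from -0.48 to -0.27, Nr4a1 from -0.84 to 0.17 and Nr4a3 from -0.95 to -0.23.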

How the data were processed

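RNA of 16 striatal samples, 8 per genotype, was prepared with a stranded oligo-dT kit and sequenced by the authors as single-end reads on a pair of lanes per mouse. The deposited counts are whole reads per gene, made by the authors with TopHat on mm10 and htseq-count 0.6.1p1 without strand, and reads placed at several sites were left out. The authors' fold changes and p-values, from a model with home cage, were not used as values. Their list of differing genes was used to leave its genes out of the scores and to mark markers on it. Their scripts were read for software versions only. The labels and the methods differ in age range and punch diameter. Lane counts were summed per mouse, and 1 lane file was analysed for B6 mouse 7. Reads on genes came to between 19032826 and 33748353 per mouse, so counting error is small except for Nr4a3. Intervals cover the spread between these mice.

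After filterByExpr and TMM scaling, genotype alone was tested by quasi-likelihood in edgeR (version 4.0.16, under R 4.3.3), and p-values were adjusted by Benjamini-Hochberg over 15589 genes. DESeq2 1.42.0 was an alternative. The fit was tested on simulated data. Log2 CPM used a prior count of 0.5. Correlations used 100000 resamples over 16 mice and exact permutations within groups of 8. Named genes were the up to 3 genes of each list with the smallest unadjusted p under 0.05, all partners of the family, and the 5 genes most like each member among those with a mean of at least 5 CPM. Of the genes so chosen, 2 are not reported here. The members and lists were chosen with earlier results of these data known. The genes most like each member without Line 4a mouse 1, and the 4 midbrain genes below the filter, were named after their values were seen. Promoters and gene spans came from RefSeq (GRCm38.p6, the mm10 build). Exon lengths and the search for shared exon bases came from the GENCODE annotation of the earlier build.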

Additional observations from a re-analysis of the deposited data

How the results depend on the processing

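No alternative put a member past an adjusted p of 0.05, and the differences of Nr4a2 and Nr4a3 kept their direction in all 32 alternatives run. Leaving out each mouse in turn gave log2 differences of -0.67 to -0.33 for Nr4a1, -0.53 to -0.38 for Nr4a2 and -0.65 to -0.41 for Nr4a3. Nr4a1 turned to 0.17 with the activity score as a covariate, and to 0.076 among mice of lanes 5 and 6 with Line 4a mouse 1 left out, which like the fit without that mouse and B6 mouse 8 was chosen after seeing the data. The cause was not tested.

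The ratio of Nr4a1 to Nr4a2, near 0 in its genotype difference, turned to 0.28 among mice of lanes 5 and 6 and ran from -0.20 to 0.14 when 1 mouse was left out, with 0.0011, 0.026, 0.14 and 0.036 without B6 mice 2, 5, 7 and 8 and 0.078, 0.019, 0.12 and 0.063 without Line 4a mice 1, 2, 3 and 5. Nr4a1 to Nr4a3 turned to -0.61 on lanes 7 and 8 and ran from 0.018 to 0.33. Nr4a2 to Nr4a3 turned to -0.31 on lanes 7 and 8 and to -0.060 without Line 4a mouse 1, and otherwise ran up to 0.38.

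The r of Nr4a1 with Nr4a2 was -0.34 in Line 4a alone and ran from 0.29 to 0.62 with 1 mouse left out. That of Nr4a1 with Nr4a3 had a permutation p above 0.05 with genotype means removed (0.45), in B6 alone (0.40), in Line 4a alone (0.58) and on lanes 5 and 6 (0.53) and 7 and 8 (0.63), where fewer mice enter. It ran from 0.51 to 0.60 with 1 mouse left out, and its permutation p was 0.0506 without B6 mouse 2 and 0.0510 without B6 mouse 8. That of Nr4a2 with Nr4a3 was -0.078 with genotype means removed and -0.21 in Line 4a alone, and ran from 0.13 to 0.36.

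With the mouse number as a replicate block, differences were -0.47 for Nr4a1, -0.45 for Nr4a2 and -0.61 for Nr4a3 (edgeR adjusted p-values 0.602, 0.375 and 0.541). Same-numbered mice had correlations of their deviations from -0.12 to 0.36, and 2 of the 8 numbers correlated best with their own, so the numbers were not taken as pairs. Genes at an adjusted p under 0.05 numbered 1, and 0 with the block, 20 by edgeR's likelihood ratio test, 25 by DESeq2, 2 with lane pair as a covariate, 0 within either lane pair and with each score, 4 without Line 4a mouse 1 and 7 also without B6 mouse 8. At an unadjusted p under 0.05 there were 1559, and 500 on lanes 5 and 6, 1407 on lanes 7 and 8, 734 on lanes 5 and 6 without Line 4a mouse 1, and 194, 366 and 645 with the claustrum, cortical and activity scores.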
